A study of Homo sapiens with 36 samples.

Results

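The subunits of the mitochondrial respiratory chain that are encoded in the nucleus were followed in WiT49, an anaplastic Wilms tumor cell line, under low-dose actinomycin D (actD). The set holds 89 protein-coding genes, taken from the 58219 genes of the RNA tables and the 43582 genes of the footprint tables by their symbols in GENCODE release 29. It covers 37 genes of complex I, 4 of complex II, 10 of complex III, 19 of complex IV and 19 of complex V. NDUFA4 and NDUFA4L2 carry complex I names and are counted here with complex IV, where the NDUFA4 protein is now placed.

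Cells were kept in low-glucose medium with pyruvate and given actD at 2 nM, or dimethyl sulfoxide (DMSO) as its vehicle. Treatment lasted 6 h, 72 h or 2 weeks. Over the 2 weeks cells went through 2 rounds of 7 days, in which 3 days with additive were followed by 4 days without. Total RNA and ribosome footprints, the RNA stretches shielded by translating ribosomes, were each sequenced from 3 libraries per group, which gives 12 groups and 36 libraries. All groups are the same single line with no genetic change named in the labels. The labels do not say that libraries of a group came from separate cultures, so p-values measure only the spread between these libraries. For RNA at 2 weeks the treatment in a library's title contradicts that in its library name. That comparison is reported as libraries named actd against libraries named dmso, and every sign in it turns if the titles are right.

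The respiratory chain sits in the inner mitochondrial membrane. Complexes I and II feed electrons from NADH and succinate into the chain, complex III passes them to cytochrome c, complex IV hands them to oxygen, and complex V, the ATP synthase, uses the proton gradient built by complexes I, III and IV to make ATP. A small number of subunits of complexes I, III, IV and V are encoded in mitochondrial DNA, complex II is wholly nuclear, and all genes of the set are transcribed in the nucleus and translated in the cytosol. ActD binds DNA and blocks RNA polymerases, that of ribosomal RNA genes at the lowest doses. Transcription factors of the NRF1, ETS and YY1 families are known regulators of many of these nuclear genes.

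Promoters were searched for the motifs of these 3 factor families because the members share a known regulation that the selection by name did not use. RefSeq promoters (GRCh38.p14, 250 bases before to 50 after the start) were listed for 72 of the 89 genes. Those listed for CYC1 do not lie at its annotated gene and hold none of the motifs. The promoter of CYC1 itself was thus not searched. CYC1 still counts in the 72 and in the 8 of complex III, so these shares are approximate. Some genes have several promoters listed, and a member counts if any of its promoters holds the motif. The NRF1 motif, GCGCA and GCGC with any base N between them, was held on either strand by 17 of these 72 genes (23.6%). Among the 15771 other protein-coding genes the share was 9.61%. The ETS motif CCGGAAG was held by 21 (29.2%, against 16.5%) and the YY1 motif, AAGATGG directly followed by CGGC, by 4 (5.56%, against 1.56%). At least 1 of the 3 motifs was present for 36 genes, or 50%, against 24.8% of the other genes. By complex the NRF1 motif was found for 6 of 32 genes of complex I, 2 of 3 of complex II, 4 of 8 of complex III, 1 of 16 of complex IV and 4 of 13 of complex V. A match is a description of the letters and shows no binding. The stretches of 30 bases around the motif nearest the start are printed 5′ to 3′ on the gene's strand for 6 members that carry the results below or a catalytic centre, with the motif in capitals. They lie at chr18:46098327-46098356 (minus strand, ATP5F1A), chr2:206159584-206159613 (minus, NDUFS1), chr5:218290-218319 (plus, SDHA), chr3:48609674-48609703 (minus, UQCRC1), chr19:29213163-29213192 (minus, UQCRFS1) and chr5:132866576-132866605 (plus, UQCRQ).
ATP5F1A: cgaggggcagtaCTTCCGGgtcaggtgggc
NDUFS1: aggctggggccaCTTCCGGcggaactgcgg
SDHA: cccggtgtggtGCGCAGGCGCagtctgcgc
UQCRC1: gtacggtactGCGCCTGCGCcgcgaccgcc
UQCRFS1: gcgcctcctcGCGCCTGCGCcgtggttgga
UQCRQ: aaatggtatctcCCGGAAGttacctcacga
The capitals are the ETS motif in ATP5F1A, NDUFS1 and UQCRQ and the NRF1 motif in SDHA, UQCRC1 and UQCRFS1. In ATP5F1A, NDUFS1, UQCRC1 and UQCRFS1 the motif lies on the opposite strand, so that its reverse complement is printed. ATP5F1A and NDUFS1 each have a further promoter listed that holds none of the motifs, and that of ATP5F1A lies at the annotated gene start. No promoter was found for UQCRB, COX6C or ATP5F1B.

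Total counts ran from 40221994 to 69240041 in the RNA libraries and from 152556 to 1281039 in the footprint libraries, of which protein-coding genes held 23134 to 283435. Levels are given as CPM, the counts of a gene relative to the TMM-scaled total of its library, and so measure a gene against the other genes of that library. In bulk samples fewer cells and less RNA per cell cannot be told apart. Of the 12 kidney progenitor markers listed, IGF2 ran from 1481 to 1815 CPM of RNA at 72 h, SALL2 from 30.1 to 44.3 and WT1 from 3.77 to 10.1, while PAX8 and EYA1 stayed at or below 0.267. Of 5 markers of other cells, MYOD1 was at 0 in all 6 of these libraries, PECAM1 in 5 of 6 and PTPRC in 2 of 6. DES, a muscle marker, was present at 6.27 to 9.58 CPM and the epithelial marker EPCAM at 7.64 to 21.7. None of these markers passed the test at 72 h.

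The most abundant RNAs per length came from different complexes. At 72 h in DMSO the RNA level per kilobase was highest for UQCRH, the hinge protein of complex III, at 444 CPM per kb (SD 68.6, n = 3), followed by ATP5F1B, the catalytic beta subunit of ATP synthase, at 359 (SD 40.4). NDUFS5 of complex I came next at 302 (SD 27.6) and ATP5MF, a membrane subunit of ATP synthase, at 287 (SD 21.7). Each neighbouring pair in this order overlapped between libraries. After actD the order at the top was UQCRH at 432, ATP5MF at 353 (SD 56.7), NDUFS5 at 261 and ATP5F1B at 226 (SD 7.95), with no overlap only between ATP5MF and NDUFS5 among these neighbours. Median levels per complex in DMSO were 35.2 CPM per kb for complex I, 40.2 for II, 52.4 for III, 89.8 for IV and 105 for V.

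Isoforms known from other tissues were low or silent in these cells. RNA of COX4I2, the lung isoform of COX4, and of COX7B2 was listed at 0 in all 18 RNA libraries. The muscle isoforms COX6A2 and COX7A1 had mean counts of 3.39 and 7.72 per library and the germ cell isoform COX8C 1.56. COX6B2, a testis isoform, reached 119.8 counts and NDUFA4L2, a hypoxia-induced relative of NDUFA4, 73.2. Their general counterparts were abundant, with mean counts of 12902 for NDUFA4 and 8170 for COX6B1. At 72 h COX4I1, the general COX4, was at 83.1, 150 and 61.3 CPM in actD and 147, 94.7 and 88.4 in DMSO. These groups overlapped, as they did for COX6A1, COX6B1, COX7A2, COX7A2L and COX8A, and for the 3 genes of the ATP synthase c ring, ATP5MC1, ATP5MC2 and ATP5MC3. Readthrough transcripts were rare, with 6.61 counts for NDUFC2-KCTD14 and 20.2 for ATP5MF-PTCD1.

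**Figure D1:**
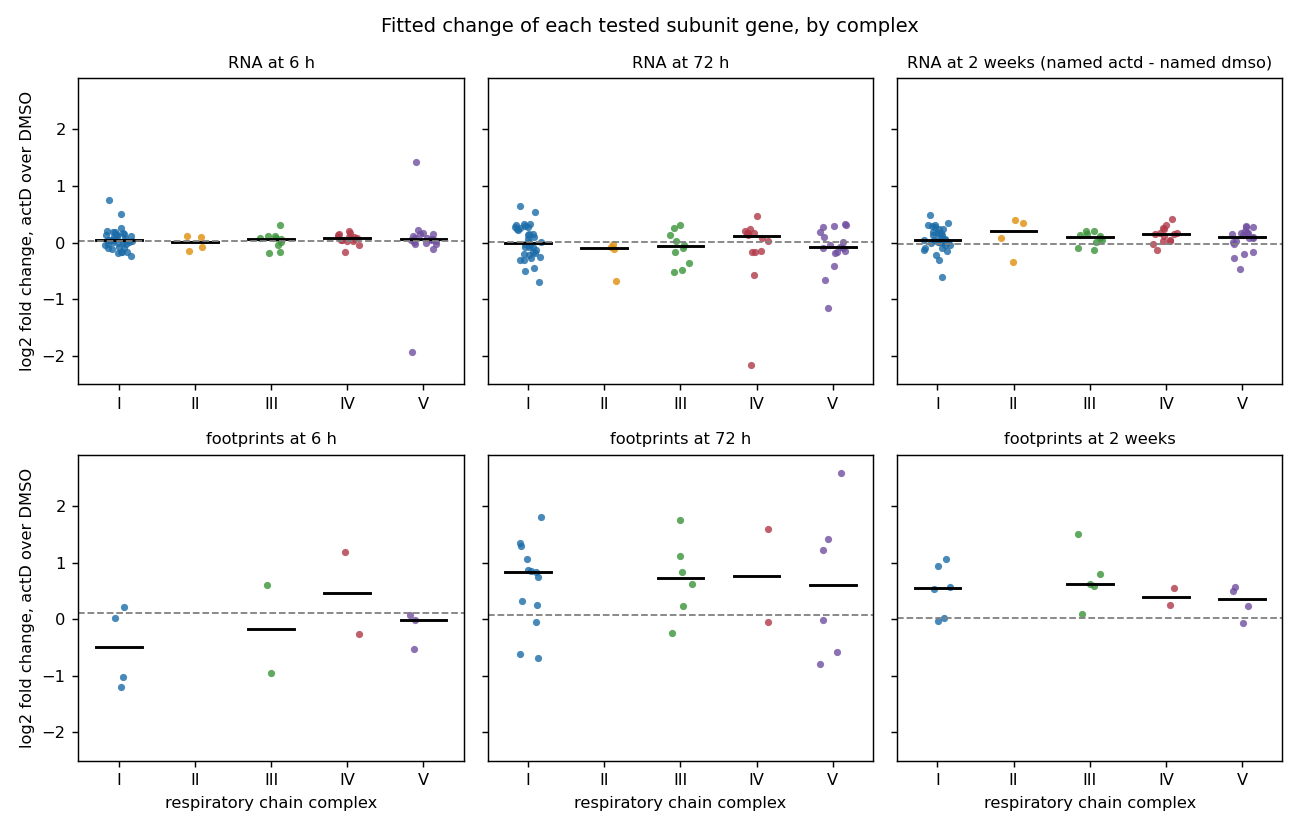
Each point is the fitted log2 fold change (actD over DMSO, vertical axis) of 1 tested subunit gene, placed by complex (horizontal axis) for RNA (upper row) and footprints (lower row) at 6 h, 72 h and 2 weeks, with black bars for the median of a complex and a dashed line for the median of all tested genes. RNA medians lie close to that line at all 3 times, and footprint medians at 72 h lie above it in complexes I, III, IV and V, between 0.61 and 0.84. Some members entered the footprint test only through actD libraries, where they were higher.

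At 6 h the RNA of the respiratory chain differed little between the groups. Of the 84 members with enough counts to be tested, which are not all members, none passed the edgeR quasi-likelihood test at an adjusted p under 0.05, as none of the 22669 tested genes did (0%). 2 members had an unadjusted p under 0.05, against 8.21% of all genes, and DESeq2 called no member, against 0.943% of genes. The fitted change was above 0 in 59 members and below in 25, where 53% of all tested genes lay above 0. The median log2 fold change was 0.06 for the members and 0.02 for all genes. The actD and DMSO libraries did not overlap for 4 members, 1 higher and 3 lower, against 15.8% of all genes.

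The member apart on the higher side was NDUFA5, an accessory subunit of the matrix arm of complex I. Its RNA was at 26.3, 37.6 and 54.3 CPM in actD and at 25.9, 22.9 and 21.2 in DMSO, and the lowest actD library lay next to the highest DMSO library. The log2 fold change was 0.76 (SE 0.24, edgeR adjusted p = 0.517). Those on the lower side included SDHA, the flavoprotein of complex II that oxidises succinate, and NDUFS1, a core subunit of the matrix arm of complex I. SDHA was at 64.5, 63.9 and 61.1 CPM in actD and 74.8, 69.5 and 66.6 in DMSO, a log2 difference of -0.15. NDUFS1 differed by -0.16. The widest fitted changes, 1.42 for ATP5MGL and -1.93 for ATP5MF-PTCD1, were of genes with at most 131 counts in a library and overlapping groups.

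At 72 h no member passed the test for RNA either, and 7 members were lower in every actD library than in any DMSO library, among them ATP5F1A, ATP5F1B and SDHA. Of 81 members tested by edgeR, 0 had an adjusted p under 0.05, where 1 of 21195 genes did (0.00472%). The fitted change was above 0 in 38 members and below in 43 (51.4% of all genes lay above 0), with a median of -0.02 against 0.02. An unadjusted p under 0.05 was reached by 8 members, 9.88% against 13.1% of all genes. Of these, 7 were lower, where 7.78% of all genes were lower at that level. Groups did not overlap for 14 members, 7 higher and 7 lower, which is 17.3% against 20.9% of all genes. The share of members was thus not above that of all genes on either count.

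The lowest p among the members was that of ATP5F1A, the alpha subunit of the catalytic head of ATP synthase (chromosome 18, 46080248 to 46104334 in GRCh38, minus strand). Its RNA was at 106.8, 119.8 and 130.2 CPM in actD and 242.6, 226.5 and 322.9 CPM in DMSO, so that the highest actD library lay well below the lowest DMSO library. The log2 fold change was -1.15 (SE 0.21, n = 3 and 3), with an unadjusted p of 0.000784 and an edgeR adjusted p of 0.199. DESeq2 gave -1.16 with an adjusted p of 0.000685. In a fit of edgeR over all 3 time points, which shares 1 estimate of the spread, it was -1.13 with an adjusted p of 0.00129.

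ATP5F1B, the beta subunit that carries the active sites of the same head (chromosome 12, 56638175 to 56646068), was the most abundant RNA of the set by counts. It was at 399, 424 and 425 CPM in actD and 737, 653 and 589 in DMSO. The 2 groups did not overlap, and the log2 fold change was -0.67 (SE 0.20, edgeR adjusted p = 0.276). ATP5F1A and ATP5F1B were the 2 members of complex V with groups apart on the lower side. ATP5PO, the stalk subunit that confers oligomycin sensitivity, ranged from 79.3 to 186 CPM in actD and from 86.3 to 222 in DMSO.

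In complex I NDUFA10, an accessory subunit, was among the members with groups apart on the lower side. Its RNA was at 44.8, 44.4 and 56.7 CPM in actD and 61.1, 66.3 and 70.4 in DMSO, a log2 difference of -0.44 with an edgeR adjusted p of 0.376. Core subunits with overlapping groups included NDUFS1, NDUFV1 and NDUFS7. NDUFS1 was at 73.6, 80.6 and 111.3 CPM in actD and 141, 133 and 104 in DMSO, NDUFV1, which binds NADH, differed by -0.26, and NDUFS7 by 0.24.

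Not all of complex I lay lower. NDUFC1, a small accessory subunit, was at 55.3, 61.1 and 52.7 CPM in actD and 44.1, 40.1 and 31.5 in DMSO, higher in each actD library, with a log2 fold change of 0.55 (SE 0.20, edgeR adjusted p = 0.324). NDUFB10, an accessory subunit of the membrane arm, was at 86.3, 78.2 and 79.0 CPM in actD and 58.9, 72.2 and 25.0 in DMSO, with DMSO replicate 3 far below the others. Of the 36 complex I genes tested, 18 had a fitted change above 0 and 18 below.

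In the other complexes SDHA and COX5A had the lowest p. SDHA (chromosome 5, 218241 to 256700) was at 31.5, 34.3 and 30.6 CPM in actD and 49.4, 65.4 and 39.4 in DMSO, a log2 fold change of -0.68 (SE 0.23, edgeR adjusted p = 0.306). SDHB, the iron-sulfur partner of SDHA, differed by -0.11 and its groups overlapped. COX5A, an early-assembling subunit of cytochrome c oxidase, was at 74.5, 70.1 and 86.4 CPM in actD and 132, 109.1 and 100.6 in DMSO, or -0.57 (SE 0.19, edgeR adjusted p = 0.316). In complex III the lowest p among members with groups apart was that of CYC1, cytochrome c1, at 54.0, 54.5 and 51.1 CPM in actD and 71.3, 76.4 and 56.1 in DMSO. Its log2 fold change was -0.35 with an adjusted p of 0.476. UQCRC1, a core subunit of complex III, differed by -0.53 with overlapping groups, and UQCRFS1, the Rieske iron-sulfur protein, by -0.17.

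The lowest fitted value of all, -2.17 for NDUFA4L2, rested on 1 library: its RNA was at 0.255, 0.259 and 0.180 CPM in actD and at 0.240, 0.509 and 2.33 in DMSO.

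**Figure D2:**
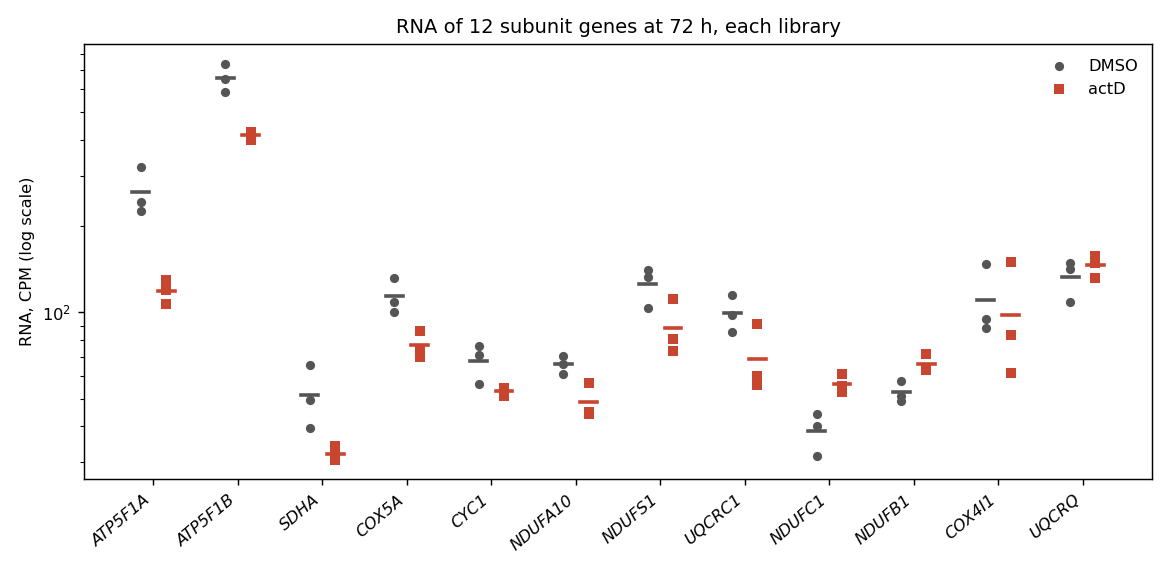
RNA level in CPM (vertical axis, log scale) of 12 subunit genes in each library at 72 h, with grey circles for DMSO, red squares for actD and bars for the mean of 3 libraries. ATP5F1A, ATP5F1B, SDHA, COX5A, CYC1 and NDUFA10 have all actD libraries below all DMSO libraries, and NDUFC1 and NDUFB1 have them above.

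Calls on RNA at 72 h depended on the test. DESeq2 called 3 members, among them ATP5F1A and ATP5F1B with adjusted p of 0.000685 and 0.0364, and 608 genes in all (3.26%). The fit over all 3 time points called 5, these same 3 with SDHA (adjusted p = 0.0366) and NDUFA4L2 (adjusted p = 0.0401), and 1212 genes in all (4.89%). All calls in both were lower in actD.

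Changes in RNA at 72 h were also set against coding length. This split was chosen after the values were seen and is a description. Of 10 tested members with a coding sequence of 1000 bases or more, all 10 were lower in fitted RNA at 72 h, with a median of -0.52, and 5 had an unadjusted p under 0.05. Of the 9799 other protein-coding genes of that length 13.0% were lower at that level, with a median of -0.12. Among the 71 shorter members 38 were higher and 33 lower, with a median of 0.01, so that most of the 43 lower members were short, CYC1 and COX5A among them. Across the 81 members Spearman's rho of the log2 fold change with coding length was -0.59, across genes that share the same libraries. Over the 14220 other protein-coding genes tested rho was -0.23, and 60.1% of those with 1000 bases or more were lower. At 6 h 10 of 11 long members were lower (rho -0.50), and NDUFA5, which was apart on the higher side, is a short one.

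The actD effect on RNA at 72 h was then set against that at 6 h in 1 model. No member passed edgeR (0 of 84 tested, against 4 of 24251 genes, 0.0165%), and 7 had an unadjusted p under 0.05, against 8.02% of genes. Of these 7, 6 had a lower effect at 72 h. ATP5F1A had been at 246, 271 and 248 CPM in actD and 283, 260 and 236 in DMSO at 6 h, with overlapping groups, and its log2 fold change at 72 h differed from that at 6 h by -1.14 (SE 0.25), with an edgeR adjusted p of 0.233. ATP5F1B followed with -0.75 (adjusted p = 0.438), COX5A with -0.72 and SDHA with -0.54. DESeq2 called ATP5F1A (adjusted p = 0.00372) and ATP5F1B (adjusted p = 0.0180), 2 members, where it called 0.828% of genes.

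For RNA at 2 weeks all directions follow the library names. Of 83 members tested by edgeR 0 passed, as did 0% of 21137 genes, and DESeq2 called none, against 1.14% of genes. Libraries named actd had a fitted value above those named dmso in 63 members and below in 20, where 46.8% of all genes lay above 0, and the medians were 0.08 and -0.02. An unadjusted p under 0.05 was reached by 7 members, 6 of them higher, against 8.93% of genes, and 13 had groups apart, 11 higher and 2 lower, against 15.7%. By the titles 20 members would be higher and 63 lower, and 1 of the 7 higher. By the library names 7 of 11 members with 1000 coding bases or more were lower (median -0.14) and 59 of 72 shorter ones higher (median 0.13), with a rho of -0.35 over the members and -0.26 over 14456 other protein-coding genes.

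The lowest p at 2 weeks was that of NDUFV1, at 38.8, 47.1 and 43.4 CPM in libraries named actd and 63.2, 80.2 and 53.3 in those named dmso, a log2 difference of -0.61 (SE 0.16, edgeR adjusted p = 0.425). SDHC, a membrane anchor of complex II, was at 87.0, 89.6 and 80.1 CPM against 58.9, 57.9 and 78.8, a difference of 0.39 with an adjusted p of 0.512. COX7A2, a small subunit of complex IV, was at 43.1, 44.6 and 45.0 against 32.9, 32.7 and 41.9, or 0.30 with an adjusted p of 0.536. ATP5PF, a stalk subunit also called coupling factor 6, was at 79.9, 79.2 and 83.0 against 58.4, 64.6 and 75.8, or 0.28 with an adjusted p of 0.559. In all of these the third library named dmso lay nearest to the other group. ATP5F1A differed by -0.20 and ATP5F1B by 0.03, both with overlapping groups.

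Footprints of the set were thin, and many members had none. Among members with a mean RNA count of 1000 or more, 15 of 77 (19.5%) had no footprint in any of the 18 libraries, where 251 of 7356 other protein-coding genes (3.41%) had none. The members are short, and for genes with a coding sequence under 500 bases the shares were 12 of 49 (24.5%) and 48 of 652 (7.36%). From 500 to under 1000 bases they were 3 of 18 (16.7%) and 83 of 1549 (5.36%), and from 1000 bases on 0 of 10 and 2.33%. NDUFA4, with a mean RNA count of 12902, had no footprint, nor had COX6B1 (8170), COX5B (6188), NDUFA1 (5871), ATP5MF (5167), COX5A (4670) or SDHB (3448). A 0 in these tables may be a failed estimate as well as an absence of ribosomes, so it is given only as listed.

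Some members have near-identical copies. UQCRH had a mean RNA count of 11782 and 15 footprint counts over 18 libraries, while UQCRHL, its intronless copy with the same coding length, had 1645 and 386. ATP5MG had 10321 and 58, and its copy ATP5MGL 10.8 and 129. ATP5MGL also overlaps the coding gene CYB5R3 on the same strand, and the part of that gene's reads in its counts was not tested. How reads with several matches were counted is not given in the sources used here. Footprints of UQCRH, UQCRHL, ATP5MG and ATP5MGL are uncertain. COX6C has 17 named processed pseudogenes in the annotation and UQCRB 3, so that their counts could be divided as well. ATP5F1B held the most footprints, 4669 over all libraries, followed by ATP5F1A with 1595.

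**Figure D3:**
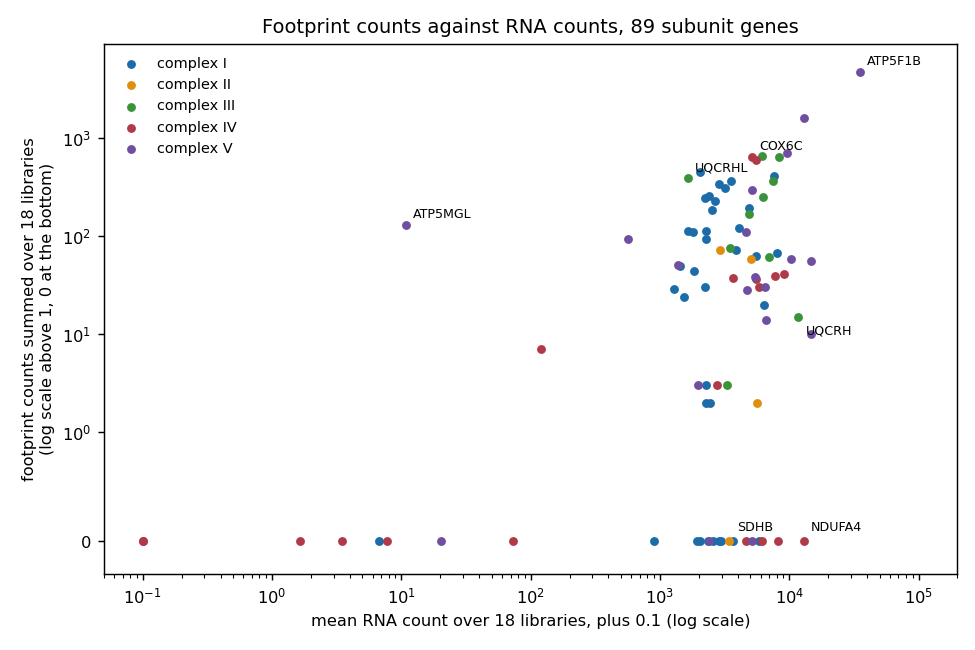
Footprint counts summed over 18 libraries (vertical axis, log scale above 1 with 0 at the bottom) against the mean RNA count per library plus 0.1 (horizontal axis, log scale) for the 89 subunit genes, coloured by complex. NDUFA4 and SDHB sit at 0 footprints with mean RNA counts of 12902 and 3448, and ATP5F1B has the most of both.

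At 6 h 11 members had enough footprints to be tested, and 0 passed edgeR, where 0% of 1212 genes did; 1 had an unadjusted p under 0.05, against 3.14% of genes. DESeq2 called none, against 0.826%. The 1 member was COX4I1, the general COX4 subunit of complex IV, at 35.1, 29.1 and 74.2 CPM in actD and 22.4, 16.9 and 21.0 in DMSO. It was also the 1 member with groups apart, against 9.41% of genes, and its log2 fold change was 1.19 (SE 0.46, edgeR adjusted p = 0.889).

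At 72 h footprints of UQCRB, a subunit of complex III at the ubiquinone-binding side, rose in actD, the 1 member that passed the edgeR test as reported in any of the 12 comparisons. Of 27 members tested by edgeR 1 was called, against 92 of 2426 genes (3.79%). DESeq2 called 0 members, against 4.42% of genes. The fitted change was above 0 in 19 members and below in 8 (52.8% of all genes lay above 0), and the median was 0.83 against 0.07. An unadjusted p under 0.05 was reached by 8 members, 29.6% against 27.3% of all genes. All 8 were higher, where 14.2% of genes were higher at that level. Groups did not overlap for 12 members, 44.4% against 35.7%, and 11 of these were higher, against 19.5%. The members were tested only where counts allowed it. UQCRB, NDUFA11, NDUFA13, NDUFS7 and ATP5F1D, all among the 8 above, had too few DMSO counts to pass the filter on those libraries alone. They entered the test through actD libraries, where they were higher, so the numbers of higher members and the median are a description only. Of the 27 tested, 5 had a 0 in a library, all of them higher. Of the 22 without a 0, 14 were higher and 8 lower, with a median of 0.53. A further 31 members had no footprint in any of the 6 libraries.

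UQCRB (chromosome 8, 96225920 to 96235634, minus strand) had 46, 27 and 64 footprint counts in actD and 7, 8 and 2 in DMSO. Scaled, these were 68.7, 73.4 and 76.1 CPM and 15.8, 26.8 and 24.9 CPM, with all actD libraries close to each other and above all DMSO libraries. The log2 fold change was 1.75 (SE 0.35, n = 3 and 3), which is 3.36-fold, with an edgeR adjusted p of 0.0473. Its RNA at the same time was at 143, 131 and 144 CPM in actD and 139, 141 and 131 in DMSO, a log2 difference of 0.03. The call lay close to the threshold: the adjusted p was 0.0773 by DESeq2, 0.298 with library totals in place of TMM, 0.0559 with no filter on low counts, 0.116 in 1 fit over all 3 time points, and between 0.0409 and 0.233 when 1 library was left out, under the threshold only without the third actD library. The log2 fold change under all alternatives lay between 1.44 and 1.93.

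The next was COX6C, a small subunit of complex IV (chromosome 8, 99873200 to 99894062, minus strand). Its footprints were at 185, 152 and 224 CPM in actD and 49.8, 67.1 and 74.6 in DMSO, a wide gap, with a log2 fold change of 1.59 (SE 0.36, edgeR adjusted p = 0.0547). NDUFB10 was at 77.6, 81.6 and 61.9 CPM in actD and 24.9, 23.5 and 49.7 in DMSO, or 1.34 (SE 0.38, adjusted p = 0.0838). NDUFA11, a membrane-arm subunit of complex I, was at 35.8, 27.2 and 27.4 CPM in actD and 6.79, 13.4 and 0 in DMSO, with an adjusted p of 0.0908. All 3 had every actD library above every DMSO library.

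UQCRQ, a small subunit of complex III, was at 106.01, 92.4 and 73.8 CPM in actD and 29.4, 50.3 and 49.7 in DMSO, or 1.12 (SE 0.37, edgeR adjusted p = 0.110). ATP5F1D, the delta subunit of the ATP synthase rotor, was at 37.3, 24.5 and 38.1 CPM in actD and 6.79, 20.1 and 12.4 in DMSO, or 1.42 (SE 0.49, adjusted p = 0.118). UQCRFS1 was at 164, 152 and 182 CPM in actD and 99.5, 127 and 37.3 in DMSO, or 0.83 with an adjusted p of 0.245. For these 3 as well the groups did not overlap, although none passed the test. The highest fitted value, 2.57 for ATP5PD of the peripheral stalk, came with overlapping groups and a spread from 25.4 to 168 CPM within actD.

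Of the 8 members on the lower side, 5 had a coding sequence of 1000 bases or more. ATP5F1A, the lowest, was at 152, 201 and 290 CPM in actD and 321, 500 and 286 in DMSO, a log2 fold change of -0.79 with an edgeR adjusted p of 0.279. ATP5F1B was at 1260, 759 and 439 CPM in actD and 1826, 969 and 846 in DMSO, or -0.57. Both overlapped. For both genes the fitted RNA change at 72 h was negative too, -1.15 and -0.67.

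**Figure D4:**
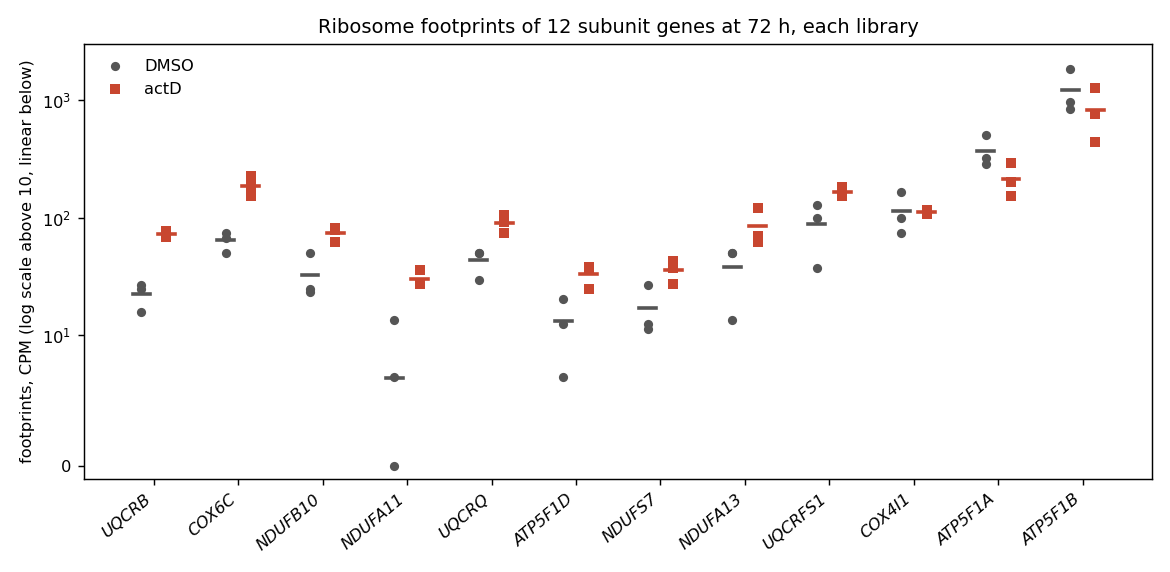
Footprint level in CPM (vertical axis, log scale above 10 and linear below) of 12 subunit genes in each library at 72 h, with grey circles for DMSO, red squares for actD and bars for the mean of 3 libraries. UQCRB, COX6C, NDUFB10, NDUFA11, UQCRQ, ATP5F1D, NDUFS7, NDUFA13 and UQCRFS1 have all actD libraries above all DMSO libraries.

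By complex, the footprint medians at 72 h were 0.84 for complex I (13 tested), 0.72 for complex III (6), 0.77 for complex IV (2) and 0.61 for complex V (6), and no gene of complex II was tested. NDUFA11, NDUFA13, NDUFS7, UQCRB and ATP5F1D, which entered the test through actD libraries, are part of these medians. The medians are thus a description only. Summed over all its genes, complex I held 966, 851 and 924 CPM in actD and 579, 717 and 585 in DMSO, a ratio of 1.46. Complex III held 672, 571 and 751 against 405, 520 and 361 (1.55), and complex IV 321, 313 and 429 against 158, 245 and 187 (1.80). In these 3 complexes the groups did not overlap. Complex V, which ATP5F1B dominates, was at 1666, 1379 and 1278 against 2355, 1693 and 1306, with overlap and a ratio of 0.807. RNA sums in CPM overlapped in every complex at every time. As shares of the protein-coding counts of RNA, however, complex I was at 0.354%, 0.349% and 0.351% in actD and 0.314%, 0.315% and 0.308% in DMSO at 72 h, without overlap. Complex IV was at 0.295%, 0.280% and 0.273% against 0.266%, 0.214% and 0.240%, also without overlap, and at 2 weeks complex II was apart, at 0.0436%, 0.0437% and 0.0429% in libraries named actd and 0.0333%, 0.0395% and 0.0417% in those named dmso. Shares of the other complexes overlapped at these times, and all did at 6 h. The denominator of these shares moved too: at 72 h it made up 54.3% to 62.4% of an actD library's RNA counts and 63.2% to 67.6% of a DMSO library's, and the part of this in the members' RNA values was not tested.

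The libraries behind these sums also differed in depth and composition. Total footprint counts at 72 h were 784322, 416131 and 693951 in actD and 440974, 215298 and 152556 in DMSO, and protein-coding genes took between 17.6% and 40.4% of them, lowest in the third DMSO library. As a share of protein-coding counts the members held 0.865%, 0.900% and 1.02% in actD and 1.28%, 1.15% and 0.738% in DMSO, and complex I 0.228%, 0.245% and 0.277% against 0.211%, 0.259% and 0.175%. These shares overlapped, also for complexes III and IV. Short genes outside the set were higher as well. Among the members tested, 18 of 21 with under 1000 coding bases were higher with a median of 0.87, and 5 of 6 longer ones were lower with a median of -0.59. The short members include those that entered the test through actD libraries. The 588 other short protein-coding genes tested had a median of 0.80, and rho with length was -0.54 for the members and -0.58 for the 2194 others. The part of depth and of library composition in the members' result was not tested.

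**Figure D5:**
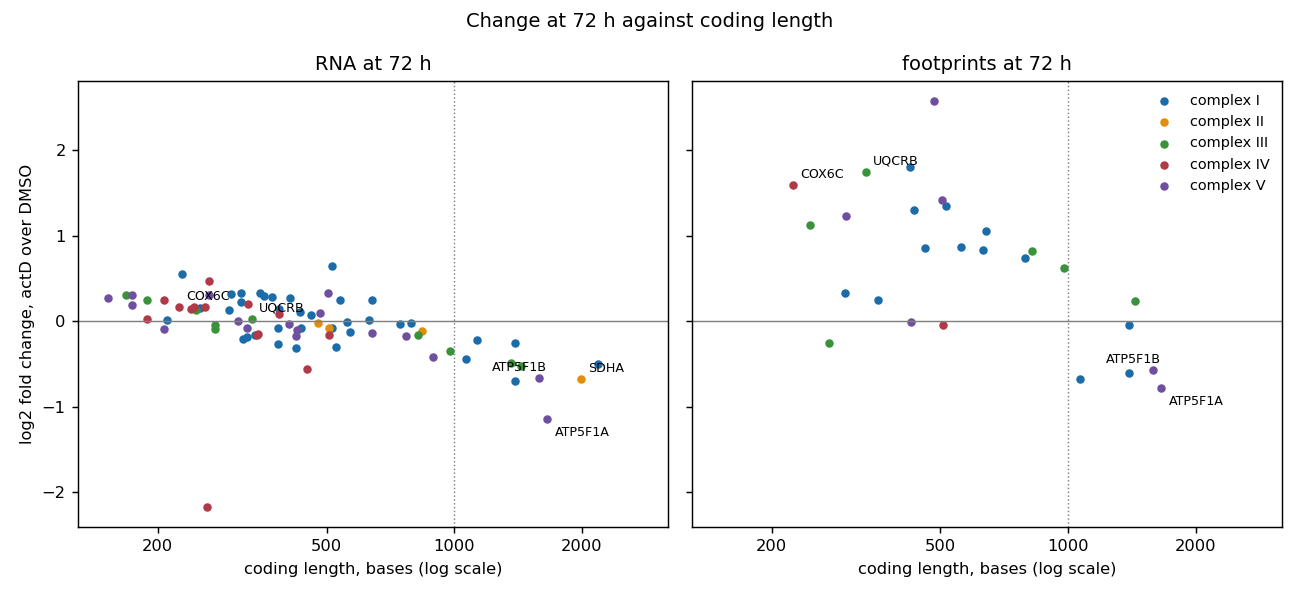
Fitted log2 fold change at 72 h (actD over DMSO, vertical axis) of each tested subunit gene against its coding length in bases (horizontal axis, log scale) for RNA (left) and footprints (right), coloured by complex, with a dotted line at 1000 bases. All 10 long members lie below 0 for RNA, and 18 of 21 short members lie above 0 for footprints. Some short members entered the footprint test only through actD libraries.

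Translational efficiency, the footprint change relative to the RNA change, was tested as an interaction. At 72 h 26 members were tested and 0 passed edgeR, against 0.433% of 2311 genes; 3 had an unadjusted p under 0.05, against 14.9%. The fitted value was above 0 in 18 members, where 51.9% of all genes lay above 0, and the median was 0.61 against 0.03. UQCRB had 1.598 (SE 0.37, edgeR adjusted p = 0.0836), NDUFA11 1.99 (adjusted p = 0.108) and COX6C 1.32 (adjusted p = 0.196). DESeq2 called UQCRB alone among the members, at 1.67 with an adjusted p of 0.0183, where it called 2.56% of genes. UQCRB, NDUFA11, NDUFA13, NDUFS7 and ATP5F1D entered this test as well through their footprints in actD, where they were higher. The UQCRB call, the number of members above 0 and the median are thus a description only. ATP5F1A was at 0.24 and ATP5F1B at -0.06. At 6 h 0 of 11 members passed (0% of genes; 1 at an unadjusted p under 0.05, against 5.26%) and DESeq2 called 0 (0.106% of genes). At 2 weeks 0 of 17 passed (0% of genes; 2 at an unadjusted p under 0.05, against 5.14%) and DESeq2 called 0 (0.0696% of genes).

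At 2 weeks, after a schedule that ends with 4 days of plain medium, 17 members had enough footprints and 0 passed edgeR, as 0% of 1598 genes did, and DESeq2 called none of either (0%). The fitted change was above 0 in 15 and below in 2, where 51.3% of all genes lay above 0, with a median of 0.55 against 0.02. UQCRB, NDUFS3, UQCRFS1, UQCRHL and NDUFA10 had too few DMSO counts to pass the filter on those libraries alone. They passed it only with actD libraries counted, where their fitted level was higher. The numbers of higher members and the medians, also those by length below, are thus a description only. 2 members had an unadjusted p under 0.05, against 8.57% of genes, and 3 had groups apart, against 14.9%. NDUFB11, a membrane-arm subunit of complex I, was at 29.6, 41.0 and 29.2 CPM in actD and 23.2, 14.4 and 15.1 in DMSO, a log2 fold change of 0.94 with an edgeR adjusted p of 0.527. UQCRB was at 21.6, 26.2 and 14.6 CPM in actD and 4.65, 1.80 and 18.1 in DMSO, with the third DMSO library inside the actD range, or 1.51 with an adjusted p of 0.562. ATP5MC3, the most abundant c ring gene, was at 43.3, 47.9 and 42.3 against 17.0, 36 and 36.2, or 0.57 with an adjusted p of 0.645. COX6C differed by 0.25. All 11 tested members with under 1000 coding bases were higher, with a median of 0.58, and so were 256 of the 325 other short protein-coding genes, with a median of 0.33.

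Whether the footprint effect of actD differed between times was tested for 72 h against 6 h and for 2 weeks against 72 h. In the first 0 of 27 members passed edgeR (0% of 3012 genes), 2 had an unadjusted p under 0.05 (6.54% of genes), and DESeq2 called 0 (0.366% of genes). COX6C had an effect higher by 2.01 at 72 h (edgeR adjusted p = 0.733). In the second 0 of 31 members passed (0.0532% of 3760 genes), 2 had an unadjusted p under 0.05 (7.5% of genes), and DESeq2 called 0 (0.266% of genes). These were COX6C, whose effect was lower at 2 weeks by -1.47 (adjusted p = 0.468), and NDUFB10, by -1.63 (adjusted p = 0.510). The effect on UQCRB is thus not shown to differ between 72 h and the other times.

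Genes that work with the set were taken from lists. Of 50 assembly factors, 32 had a higher and 18 a lower fitted RNA level at 72 h, where 51.4% of all genes lay above 0. None passed edgeR. An unadjusted p under 0.05 was reached by 4 higher and 2 lower, a share below the 13.1% of all genes. LYRM7, which carries the Rieske protein before its insertion into complex III, was at 56.1, 98.1 and 122 CPM of RNA in actD and 10.5, 7.81 and 9.52 in DMSO, far apart, with a log2 fold change of 3.31 (SE 0.33, edgeR adjusted p = 0.0735). Its actD effect at 72 h was above that at 6 h by 2.88 (edgeR adjusted p = 0.0321), which passed the test. It had 3 footprint counts in 1 actD library and 0 in the other 5 at 72 h. NDUFAF4, an assembly factor of complex I, had 21, 13 and 36 footprint counts in actD and 0 in all DMSO libraries (edgeR adjusted p = 0.0454) and no RNA difference beyond its spread, with 28.2 to 64.0 CPM in actD and 29.3 to 39.0 in DMSO. It entered the footprint test only through its actD libraries. A listed 0 may be a failed estimate, and the third DMSO library held only 26831 protein-coding counts.

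The 13 subunits encoded in mitochondrial DNA were all lower in fitted RNA at 6 h (median -0.21), 4 higher and 9 lower at 72 h (median -0.07), and none passed edgeR at either time. Of all tested genes 53% lay above 0 at 6 h and 51.4% at 72 h. At 2 weeks all 13 were higher in libraries named actd, with a median of 0.98, an unadjusted p under 0.05 for each (against 8.93% of all genes) and groups apart for 10 (against 15.7%), but 0 passed the adjusted test. MT-ND1, a core membrane subunit of complex I, was at 416, 470 and 585 CPM against 211, 223 and 309, a log2 difference of 0.98 (edgeR adjusted p = 0.319). Of 11 regulators of these genes all 11 were lower in fitted RNA at 72 h (median -0.28), and none passed. Only 1 had an unadjusted p under 0.05, against 13.1% of all genes. Groups were apart for 3 of the 11, all lower, where 20.9% of all genes had groups apart in either direction. PPARGC1B, a coactivator of mitochondrial genes, was at 2.35, 5.57 and 3.19 CPM in actD and 7.77, 7.10 and 11.9 in DMSO, or -1.27 (edgeR adjusted p = 0.281), and YY1 and TFB1M, a mitochondrial rRNA methyltransferase, also had groups apart. NRF1, whose motif is printed above, differed by -0.54 with overlapping groups.

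Related genes that the symbol rule leaves out are ATP5IF1, the inhibitor of ATP synthase, CYCS, cytochrome c, and NDUFAB1, the acyl carrier protein of complex I. ATP5IF1 RNA at 72 h was at 86.6, 89.6 and 81.7 CPM in actD and 68.8, 68.4 and 53.9 in DMSO, or 0.43 (edgeR adjusted p = 0.376). Its groups did not overlap, whereas CYCS, at 0.34, and NDUFAB1, at -0.07, had groups that did.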

How the data were processed

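The authors deposited 1 table of whole-number values for each assay and time point, read here as unnormalised estimated counts. HISAT2, StringTie and hg38 are named in the submitters' processing notes, without versions. The annotation, the use of strand and the counting of reads with several matches are not given in the sources used here. Rounding changed no value.

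Genes were named through GENCODE release 29 after the identifier versions were removed. The members and lists were chosen with earlier results of these data known. Each table was tested alone over all its genes with edgeR 4.0.16 (R 4.3.3, limma 3.58.1): TMM scaling, filterByExpr, the quasi-likelihood test (two-sided) and Benjamini-Hochberg adjustment, with an adjusted p under 0.05 called. Translational efficiency and differences between times were interaction terms in joined fits, and the 2-week RNA libraries stayed out of the latter because of their labels. Levels are compared only within a table. Alternatives were DESeq2 1.42.0, other scalings and filters, protein-coding genes only, a replicate block, 1 fit per assay and leaving out each library.

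The text names members that passed a test, the member with the lowest p and groups apart in each complex, the catalytic core, isoform pairs, readthrough genes and the extremes. With 3 libraries a group the smallest two-sided exact permutation p is 0.1. The steps were tested on simulated data. Counts without molecular identifiers are not independent molecules. Values of 1 member are not reported here, though it is counted in the totals.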

Additional observations from a re-analysis of the deposited data

How the results depend on the processing

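Members called by edgeR for footprints at 72 h, 1 as reported, were 0 with library totals, 2 with DESeq2 size factors in edgeR, 6 with no filter on low counts, 3 with protein-coding genes only and 0 by DESeq2. They were 0 to 3 when 1 library was left out, with 3 without the third actD library and 0 without any other. For RNA at 72 h, 0 as reported, DESeq2 called 3 and the fit over all 3 time points 5. The difference of RNA effects between 72 h and 6 h gave 2 by DESeq2. Without a filter, footprints at 2 weeks gave 1 and the footprint effect at 2 weeks against 72 h gave 4. Translational efficiency at 72 h gave 1 by DESeq2 and 1 without footprint actD replicate 2. The cause of these shifts was not tested.

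The median change of the members minus that of all tested genes was 0.753 for footprints at 72 h, 0.599 with library totals and 0.477 (without DMSO replicate 3) to 0.935 (without DMSO replicate 2) when 1 library was left out, with 0.551 without DMSO replicate 1. For RNA at 72 h, -0.04 as reported, it ran from -0.0838 without DMSO replicate 2 to 0.0526 without DMSO replicate 1. For translational efficiency at 72 h it ran from 0.316 without footprint DMSO replicate 1 to 0.738 without footprint DMSO replicate 2. In both the footprint and the efficiency medians, members that entered through actD libraries are included, so these are a description only. For the footprint effect at 2 weeks against 72 h it was -0.481 without 72 h DMSO replicate 2 and 0.155 without 2-week actD replicate 1. By the titles it was -0.104 for RNA at 2 weeks and 0.678 for translational efficiency at 2 weeks.

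Signs turned by the titles for RNA at 2 weeks were those of ATP5PF (-0.284), COX7A2 (-0.304), NDUFV1 (0.606) and SDHC (-0.392). The footprint effect of ATP5F1D at 72 h against 6 h ran from -1.10 without 6 h DMSO replicate 1 to 4.78 without 6 h actD replicate 3, and that of UQCRB at 2 weeks against 72 h from -0.846 without 2-week DMSO replicate 2 to 1.04 without 2-week DMSO replicate 3.

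With the replicate number as a block, footprints at 72 h gave 0 called members, and UQCRB had an adjusted p of 0.142. Footprint libraries with the same number were not shown to be paired: at 72 h the deviations of actD and DMSO libraries correlated by 0.043, -0.057 and -0.034. Those of the RNA libraries at 72 h correlated by 0.069, 0.259 and 0.158, and below 0 with every other number. Pairing of these RNA libraries is thus possible, is not stated in the labels, and was left out of the main RNA test. The values that answer a comparison are counts of called members and medians over the members. Of these, 365 stayed close to the reported value, 14 moved, 7 counts rose from 0 and 8 counts fell to 0. A median was taken as close if it shifted by less than the spread between replicates, and its sign was not checked. DESeq2 gave no adjusted p for 3 values of named members.

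Footprint depth limited the set to 11, 27 and 17 tested members at 6 h, 72 h and 2 weeks.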
